A study of Mus musculus with 8 samples.

Results

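Id proteins, E proteins and a pair of further regulators, Bhlhe40 and Nfil3, were followed in ILC3s, the innate lymphoid cells of group 3, which live in mucosal tissue and are a source of interleukin 22. The 9 genes were chosen by name (Id1, Id2, Id3, Id4, Tcf3, Tcf4, Tcf12, Bhlhe40 and Nfil3) and all 9 were found among the 27179 genes of the count table. CCR6+ ILC3s had been sorted from the large intestine of 8 C57BL/6 mice at steady state, 1 RNA sequencing library per mouse. The 4 KO libraries (numbered 5 to 8) came from Zbtb46f/f mice that also carry a Cre recombinase, which deletes floxed Zbtb46 in the cells that have made it. The 4 WT libraries (1 to 4) came from Zbtb46f/f mice without Cre, so deletion of Zbtb46 and presence of Cre cannot be told apart. Both groups carry the floxed alleles, and no age of the mice was available.

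E proteins are basic helix-loop-helix (bHLH) transcription factors that bind E-box DNA as dimers. The mouse genes are Tcf3 (encoding E2A), Tcf4 (E2-2) and Tcf12 (HEB), which despite their symbols are unrelated to the Wnt-pathway factor TCF-1 encoded by Tcf7. Id proteins have the dimerisation domain but no DNA-binding region, so an E protein held by an Id protein cannot bind DNA. Innate lymphoid cells depend on Id2, which keeps E proteins from driving B and T cell programmes, and on Nfil3, a basic leucine zipper repressor that acts early in their development. Bhlhe40 is a bHLH repressor of its own class that responds to activation and the clock.

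Id2 and Id3, close relatives in function, differed widely in level, and Nfil3 lay between them. The 250 bases before a RefSeq start (GRCm38.p6) of these 3 genes are shown for that contrast. E-box letters (CANNTG, a pattern that reads the same on both strands) are in capitals. The Nfil3 window lies inside the gene's annotated span (52967209 to 52982878), so the start used for it is not the outermost one. The Id2 window is chr12:25096093-25096342 on the minus strand, the Id3 window chr4:136143572-136143821 on the plus strand and the Nfil3 window chr13:52981040-52981289 on the minus strand.
Id2: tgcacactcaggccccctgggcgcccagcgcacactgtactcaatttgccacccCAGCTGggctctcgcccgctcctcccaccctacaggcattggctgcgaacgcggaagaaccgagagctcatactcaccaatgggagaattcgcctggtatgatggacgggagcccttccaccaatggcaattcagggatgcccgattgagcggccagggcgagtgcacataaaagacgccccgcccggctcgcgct
Id3: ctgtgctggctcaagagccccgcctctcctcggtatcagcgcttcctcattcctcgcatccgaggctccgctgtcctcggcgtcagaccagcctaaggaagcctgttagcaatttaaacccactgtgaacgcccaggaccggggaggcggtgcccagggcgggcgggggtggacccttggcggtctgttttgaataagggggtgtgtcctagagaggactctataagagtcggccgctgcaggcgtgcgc
Nfil3: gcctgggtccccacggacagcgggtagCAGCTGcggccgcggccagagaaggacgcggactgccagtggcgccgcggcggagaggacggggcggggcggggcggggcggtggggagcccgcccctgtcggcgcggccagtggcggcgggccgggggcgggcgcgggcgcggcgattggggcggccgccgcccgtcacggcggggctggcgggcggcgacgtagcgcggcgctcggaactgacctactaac
The Id2 and Nfil3 windows each held 1 E box, CAGCTG in both, beginning 196 and 223 bases before the start used. No CANNTG was in the Id3 window. Of 32851 promoter windows of the same length, 66.2% held CANNTG at least once and 13.0% held CAGCTG. The first of 3 Tcf12 starts listed (chr9:72111820-72112069, minus strand) also had 1 CAGCTG, 240 bases before the start, and the Tcf3 window had a single CACTTG. Both of these starts also lie inside the annotated spans of their genes. The Id2 window further held 3 copies of CCAAT, counted on both strands, which 2.79% of all windows matched or exceeded. The Id3 window held none. Id1, Tcf4 and Bhlhe40 are named here without a window. None of the windows searched held CACGTG, the form preferred by Bhlhe40 (6.02% of all windows), or the Nfil3-type letters TTATGTAA (0.819%) and TTACGTAA (0.113%), searched on both strands. These matches describe letters only.

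The libraries held 25328231 to 33760743 counts in total, with 10668 to 14410 genes detected by 1 count or more. KO 6 and WT 1 had the fewest detected genes, 10668 and 10879, and the lowest sample quality weights in limma-voom, 0.48 and 0.734 against 1.05 to 1.52 in the other 6. Zbtb46 itself was at 4.82, 0.532, 3.19 and 0.125 CPM (counts scaled to library size) in KO 5 to 8, against 8.02, 48.8, 88.9 and 26.6 CPM in WT 1 to 4. All KO libraries lay below all WT libraries (exact two-sided permutation p = 0.0286, the smallest that 4 against 4 libraries allow). EdgeR put its log2 fold at -4.31 with an adjusted p of 0.885, so the test used for the members below did not call the targeted gene either. All 9 ILC3 markers were present in every library, and they summed to 22485 to 27305 CPM in KO and 24075 to 35072 CPM in WT.

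No difference between KO and WT was detectable in any of these genes, at the spread these libraries had. Of the 9, 6 passed the filter on low counts and were tested (Id2, Tcf3, Tcf4, Tcf12, Bhlhe40 and Nfil3). At an adjusted p under 0.05, edgeR's quasi-likelihood test called 0 of the 6, and 0.0% of all 8878 tested genes passed it. At an unadjusted p under 0.05 it called 0 of the 6, where 4.1% of all tested genes were called. DESeq2 gave a p for 7 of the 9 genes and called 0 of them, adjusted or unadjusted, against 3.22% of the genes for which it gave an adjusted p. Limma-voom with sample quality weights called 0 after adjustment and Bhlhe40 alone at an unadjusted p under 0.05, where it called 8.73% of all tested genes. The KO and WT libraries were separated without overlap for 0 of the 6, where 4.36% of all tested genes were, 2.26% with KO higher and 2.1% with KO lower. Fitted values were higher in KO for 2 of the 6 and lower for 4, with a median log2 fold of -0.12 against 0.02 over all tested genes.

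**Figure D1:**
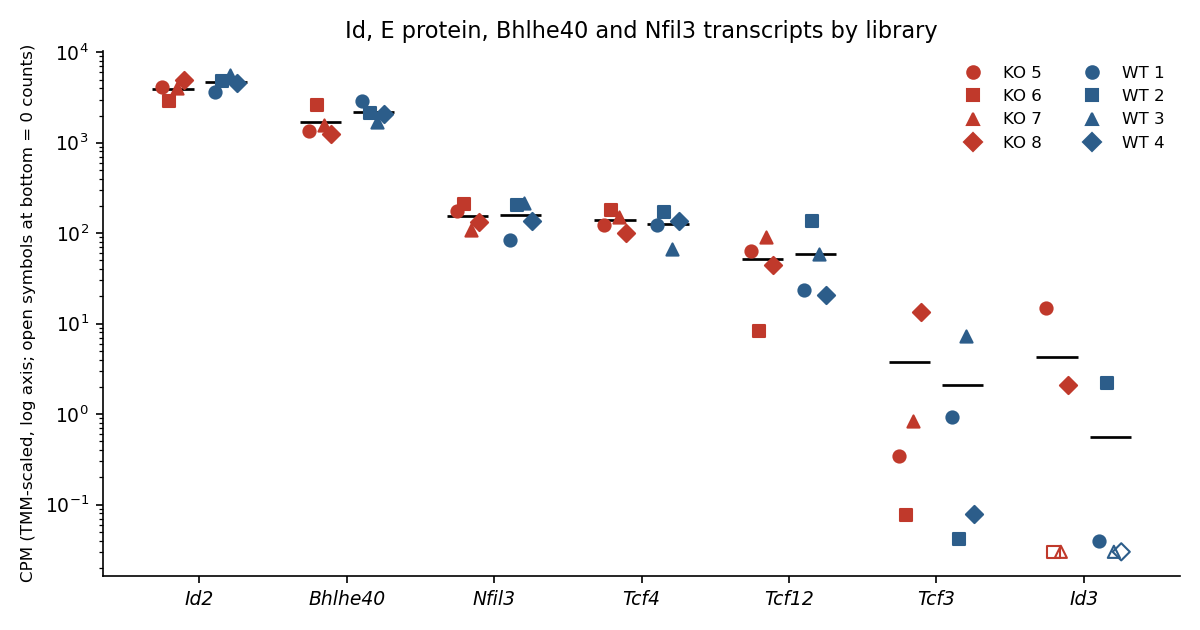
Level of 7 of the 9 genes in each library, in CPM on a log axis, with KO libraries left of WT libraries within each gene; horizontal lines are group means and open symbols mark 0 counts. Id2 and Bhlhe40 lie above the other 5 in all 8 libraries, while Tcf3 and Id3 each owe their means to 1 library per group.

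Id2 had the highest level of the 9 genes, also per length of transcript. This gene (Entrez ID 15902, chromosome 12, 25093799 to 25096092) had 4125, 2859, 3990 and 4897 CPM in KO 5 to 8, against 3648, 4846, 5665 and 4578 CPM in WT 1 to 4. The groups overlapped, and only KO 6 lay below the lowest WT library. Means were 3968 ± 840 CPM in KO and 4684 ± 831 CPM in WT (SD, n = 4 each). The fitted fold of KO over WT was 0.847 with a 95% interval of 0.610 to 1.18, and edgeR's adjusted p was 0.9999. Its coefficient of variation within groups was 19.3%, near the median of 21.8% for the 37 tested genes with 0.5 to 2 times its mean.

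The other Id genes were rare or undetected. Id1, an Id gene induced by bone morphogenetic proteins (chromosome 2, 152736251 to 152737410), had 0 counts over the KO libraries and 2 over the WT libraries. Id4, best known from the nervous system (chromosome 13, 48261116 to 48266028), had 0 counts in all 8, which allows up to 0.0889 to 0.118 CPM per library, taken as 3 counts of the total. Such limits cover counting error only, since amplified reads lacking molecular identifiers do not each stand for a separate molecule.

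Id3, which restrains E proteins in T and B cells (chromosome 4, 136143822 to 136145392), did not pass the filter. It was at 15.1, 0, 0 and 2.10 CPM in KO 5 to 8, against 0.0391, 2.19, 0 and 0 CPM in WT 1 to 4. A single KO library held 528 of its 595 KO counts, and WT 2 held 53 of the 54 WT counts. Markers of other lymphocytes were uneven across the same libraries. The summed level of 6 markers of NK cells and ILC1s was 588 CPM in KO 5, where Id3 was highest, within a range of 177 to 588 CPM in KO and 49.2 to 246 CPM in WT. Ncr1, which some ILC3s also carry, made up 447 of the 588 CPM in KO 5 and was at 148 to 270 CPM in the other KO libraries. The granzyme gene Gzma was at 59.4 CPM in KO 5 and at or below 0.228 CPM in the other 7, Ccl5 was highest in KO 7 at 104.7 CPM, and Prf1 had no counts in any library. The 7 T cell markers summed to 226 CPM in KO 5 and 249 CPM in WT 2, within 63.7 to 226 CPM in KO and 85.2 to 249 CPM in WT. Of these 7, Trbc2, Trac and Cd3d were at 94.1, 54.8 and 15.8 CPM in KO 5, and at 105.7, 22.6 and 15.4 CPM in WT 2. Cd3g was at 54.4 CPM in KO 5 and 0 CPM in WT 2, and highest at 60.9 CPM in WT 3, where Id3 was at 0 CPM. Cd4 was highest in WT 2 at 105.5 CPM and lowest in KO 5 at 6.73 CPM. Cd3e stayed at or below 0.1655 CPM, and Cd8a had no counts in any library. The sort had removed cells staining for CD3, CD5, NK1.1, CD11b, CD11c or B220, among others. The part of other lymphocytes in the Id3 reads was not tested. In bulk RNA, fewer cells of a type and less RNA per cell cannot be told apart.

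Among the E protein genes, Tcf4 was the most evenly expressed, Tcf12 varied widely and Tcf3 was near the floor in most libraries. Tcf4 (Entrez ID 21413, chromosome 18, 69343429 to 69687967) is known for its role in plasmacytoid dendritic cells. It had 122, 181, 150 and 100.4 CPM in KO 5 to 8, against 123, 173, 66.8 and 137 CPM in WT 1 to 4. KO 6 was highest and WT 3 lowest, and the groups overlapped, with means of 138 ± 35.02 CPM in KO and 125 ± 44.2 CPM in WT (SD, n = 4 each). The test gave a fold of 1.10 (95% interval 0.633 to 1.93) and an adjusted p of 0.9999 in edgeR. The 6 dendritic cell markers summed to 65.4 to 249 CPM in KO and 67.8 to 105 CPM in WT, and their part in the Tcf4 reads was not tested. Of these 6, Siglech, a plasmacytoid marker, had no counts in any library, and Flt3 and Itgax stayed at or below 0.219 CPM. Xcr1 and Ccl17 were present and overlapped between groups. Irf8, also high in plasmacytoid cells, was at 7.63 to 25.7 CPM in KO and 0.0786 to 5.75 CPM in WT. Its groups did not overlap, where 2.26% of all tested genes were higher in KO without overlap, and its adjusted p was 0.9999 in edgeR. The 5 B and plasma cell markers summed to 2.00 to 74.4 CPM in KO and 5.86 to 136 CPM in WT. Cd79a and Ms4a1 stayed at or below 0.144 CPM, whereas the immunoglobulin gene Igkc reached 33.4 CPM in KO 7 and 114 CPM in WT 1, and Jchain reached 58.9 CPM in KO 5.

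Tcf12 (Entrez ID 21406, chromosome 9, 71844252 to 72111893) had 62.9, 8.28, 90.8 and 44.3 CPM in KO 5 to 8, against 23.4, 136, 58.8 and 20.7 CPM in WT 1 to 4. KO 6 was lowest and WT 2 highest of all 8 libraries. WT 2 was also the library with 1282 CPM of the 6 epithelial markers. They summed to 0.751 to 20.2 CPM in KO and to 1.48 to 12.1 CPM in the other WT libraries. In WT 2, Muc2, Lgals4, Epcam and Krt8 were at 724, 388, 137 and 33.9 CPM, whereas Vil1 and Krt20 were each at 0.0414 CPM. KO 7, next highest in Tcf12, had a marker sum of 1.41 CPM. The part of epithelial cells in the Tcf12 reads was not tested. The fold was 0.866 (95% interval 0.240 to 3.12, adjusted p 0.9999 in edgeR), and the log2 fold was 0.58 without WT 2 and 0.15 without KO 6. Its within-group variation of 81.1% exceeded that of 78.5% of the genes of similar mean.

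Tcf3 (Entrez ID 21423, chromosome 10, 80409541 to 80433976) encodes E12 and E47, splice forms that gene-level counts do not separate. It was at 0.342, 0.0759, 0.845 and 13.6 CPM in KO 5 to 8, against 0.939, 0.0414, 7.32 and 0.0786 CPM in WT 1 to 4. KO 8 held 435 of the 476 KO counts and WT 3 held 203 of the 230 WT counts. EdgeR put its log2 fold at 0.83 (standard error 1.92, adjusted p 0.9999), and the log2 fold was -2.31 without KO 8 and 3.39 without WT 3. The interval, 0.0913 to 34.5 as a fold, covers large changes in either direction, so a difference in Tcf3 was not detectable at this spread.

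**Figure D2:**
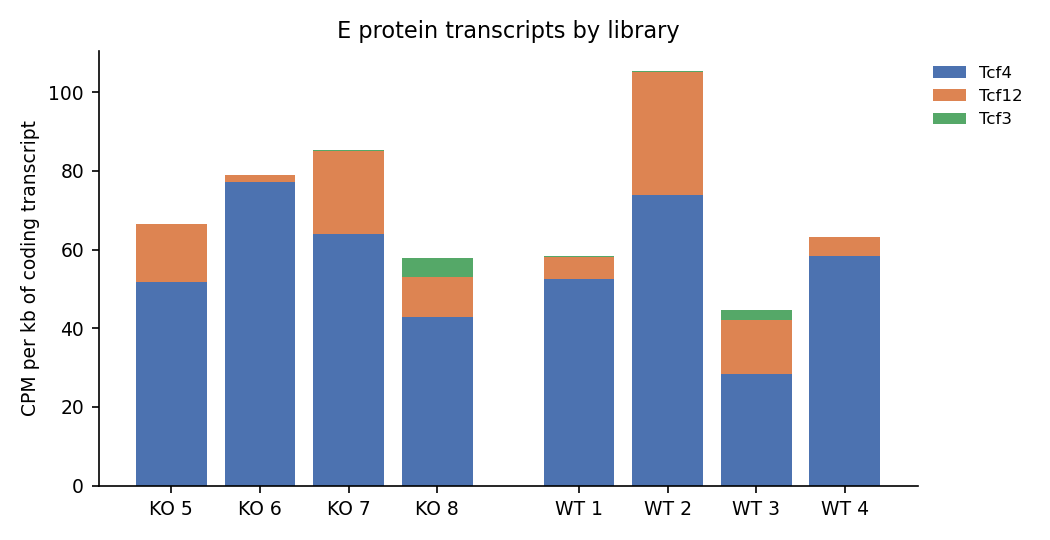
E protein transcripts in each library, KO left of WT, as stacked CPM per kilobase of coding transcript. Tcf4 forms the largest layer of every bar on this scale, and the Tcf12 layer runs from 2.43% of the bar in KO 6 to 30.5% in WT 3.

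To set genes beside each other, CPM was divided by the median length of each gene's protein-coding transcripts (GENCODE M21). On this per-kilobase scale the order of mean levels over the 8 libraries was Id2, Bhlhe40, Nfil3, Tcf4, Tcf12, Id3, Tcf3, Id1 and Id4. Id2, at 2251 to 4461 CPM per kb, did not overlap with Bhlhe40 at 692 to 1619, and Bhlhe40 did not overlap with Nfil3 at 41.5 to 107. Nfil3 and Tcf4 (28.5 to 77.1 CPM per kb) overlapped in range, but Nfil3 was the higher of the pair in 6 of 8 libraries, and in 8 of 8 with all annotated exons as length. Tcf4 exceeded Tcf12 (1.92 to 31.5 CPM per kb) in 8 of 8 libraries, but in only 5 of 8 when all annotated exons of each gene, 27382 bases for Tcf4 and 15529 for Tcf12, were counted as its length. Id3, at 0 to 11.8 CPM per kb, and Tcf3, at 0.0146 to 4.79, overlapped in range. Id3 lay above the Tcf3 range in KO 5 and, at 0, below it in KO 6, KO 7, WT 3 and WT 4.

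Id2 made up at least 99.6% of the Id transcripts per kilobase in every library. The summed Id level per kilobase was 49.0, 28.5, 36.8 and 66.7 times the summed E protein level in KO 5 to 8, against 49.2, 36.3, 99.9 and 57.0 times in WT 1 to 4. These ratios averaged 45.2 ± 16.6 in KO and 60.6 ± 27.5 in WT (SD, n = 4 each) and overlapped between groups. They depend on the length used, with means of 21.2 in KO and 28.0 in WT undivided and of 177 in KO and 239 in WT with all exons. The E protein sum averaged 72.2 ± 12.3 CPM per kb in KO and 67.9 ± 26.1 in WT. Tcf4 supplied 81.1 ± 11.1% of that sum in KO and 79.1 ± 14.3% in WT, and Tcf12 most of the rest. These shares depend on the length as well, since with all exons Tcf4 exceeded Tcf12 in only 5 of 8 libraries.

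Bhlhe40 was the member with the smallest p. The gene (Entrez ID 20893, chromosome 6, 108660629 to 108666925) had 1331, 2596, 1584 and 1242 CPM in KO 5 to 8, against 2904, 2109, 1702 and 2069 CPM in WT 1 to 4. In KO 5, KO 7 and KO 8 it was below every WT library, whereas KO 6 exceeded 3 of the 4. The means were 1688 ± 622 CPM in KO and 2196 ± 506 CPM in WT (SD, n = 4 each), a fold of 0.769 (95% interval 0.506 to 1.17) with an unadjusted p of 0.191 and an adjusted p of 0.9999 in edgeR.

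The 2 libraries with the fewest detected genes, KO 6 and WT 1, had the highest Bhlhe40 of their groups. Without KO 6 the remaining 3 KO libraries averaged 1386 ± 178 CPM against 2196 ± 506 CPM in the 4 WT libraries, and the groups no longer overlapped. KO 6 was the only KO library within the WT range, so leaving it out was bound to remove the overlap and lower the KO mean. At that number of libraries 8.57% of all tested genes did not overlap, 3.84% with KO lower. The fold was then 0.630, with an unadjusted p of 0.0118 in edgeR, where 5.45% of all tested genes had one under 0.05, and an adjusted p of 0.537. Without both KO 6 and WT 1 the means were 1386 ± 178 CPM in KO and 1960 ± 225 CPM in WT (SD, n = 3 each), the fold was 0.709 and edgeR's unadjusted p was 0.0268, where 5.83% of all tested genes had one under 0.05. The adjusted p was 0.672 in edgeR, and the groups did not overlap, as for 14.2% of all tested genes, 6.87% with KO lower. Limma-voom, which gave those libraries less weight, put the log2 fold at -0.53 with an unadjusted p of 0.0209 and an adjusted p of 0.464. None of these fits called Bhlhe40 at an adjusted p under 0.05. The annotated span of 0610040F04Rik overlaps Bhlhe40, and its reads could not be fully separated without strand, but it had 171 counts in WT 2 and 0 in the other 7 libraries.

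**Figure D3:**
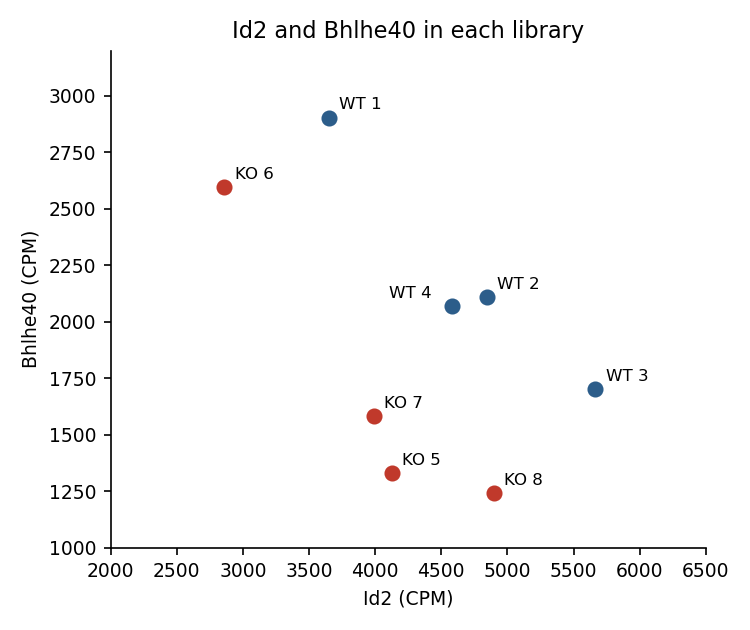
Bhlhe40 against Id2 in CPM, 1 point per library, KO in red and WT in blue. KO 6 and WT 1 combine the lowest Id2 of their groups with the highest Bhlhe40, and neither axis starts at 0.

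Id2 and Bhlhe40 leaned in opposite directions over all 8 libraries, a lean carried by KO 6 and WT 1. KO 6 and WT 1, highest in Bhlhe40, were the lowest of their groups in Id2. Over all 8 libraries, on log2 CPM, Pearson's r was -0.53 and Spearman's rho -0.52, and r was -0.41 without KO 6 and WT 3, the libraries farthest from the median of Id2. These correlations describe 8 libraries that also differ in detected genes. Id2 and Tcf4 had an r of -0.67 that was 0.04 without KO 6 and WT 3, so it rests on them.

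Nfil3 (Entrez ID 18030, chromosome 13, 52967209 to 52982878) was at a middle level and near equal in both groups. It had 176, 210, 108 and 132 CPM in KO 5 to 8, against 84.1, 203, 217 and 136 CPM in WT 1 to 4. All KO libraries lay within the WT range. The means were 156 ± 45.5 CPM in KO and 160 ± 61.6 CPM in WT (SD, n = 4 each), with a fold of 0.979 (95% interval 0.554 to 1.73) and an adjusted p of 0.9999 in edgeR. The sign of its log2 fold changed under 7 of 18 alternative settings, always within -0.42 to 0.17.

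**Figure D4:**
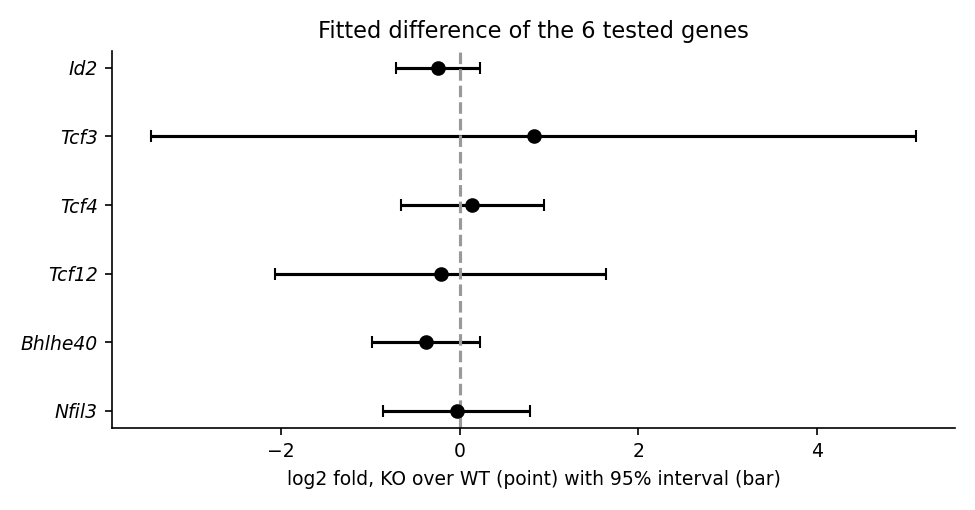
Fitted log2 fold of KO over WT for the 6 tested genes with 95% intervals from edgeR's quasi-likelihood fit. Every interval spans 0, narrowest for Id2 (-0.71 to 0.23) and widest for Tcf3 (-3.45 to 5.11).

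The genes whose levels ran most like those of the 3 abundant members were ranked among 1804 genes averaging 100 CPM or more by Pearson's r of log2 CPM over the 8 libraries. For Id2 they were C1galt1c1, a chaperone of O-glycan synthesis, with an r of 0.974 (Spearman's rho 0.976), Emc4 of the endoplasmic reticulum membrane complex with 0.9375 (0.881), and the small GTPase gene Rheb with 0.927 (0.881). Without KO 6 and WT 3, r was 0.911, 0.8915 and 0.671 for these genes in that order. For Bhlhe40 those reported were the chloride transporter gene Clcn3 (r 0.9196, rho 0.952) and the mRNA export gene Fyttd1 (0.915, 0.881), and for Nfil3 the endocytosis gene Fcho2 (0.964, 1.0) and the vesicle transport genes Use1 (0.949, 0.929) and Yipf5 (0.932, 0.905). With 1804 candidates and 8 points, values this high are a description of these libraries.

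The wider network was followed through 7 lists with 108 distinct genes, of which 62 were tested. In edgeR 0 of them passed an adjusted p of 0.05, with 30 higher and 32 lower fitted values and a median log2 fold of -0.06 against 0.02 over all tested genes. At an unadjusted p under 0.05 edgeR called 3 of the 62 (Foxo1, Tcf7 and Gpr65), where 4.1% of all tested genes were called. DESeq2, which tested 85 of the listed genes, called 0 after adjustment and 4 before it, where 7.46% of all genes were called unadjusted. Limma-voom called 0 of the 62 after adjustment and 8 before it, beside its share of 8.73% over all genes.

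The tissue-restricted bHLH partners of E proteins, such as Tal1, Lyl1, Ascl2 and Atoh1, were essentially absent. Of 16 listed genes 0 were tested, 6 had no counts at all, and the highest value in any library was 1.84 CPM. Genes that E proteins are known to activate in lymphocyte precursors had 7 of 17 tested, 5 with higher and 2 with lower fitted values and a median log2 fold of 0.25. Those 17 include genes named here after their values were seen. The recombination genes Rag1 and Rag2, the pre-T cell receptor gene Ptcra and the B lineage regulators Ebf1 and Pax5 were all untested, with group means of at most 0.0414 CPM. Foxo1, a forkhead factor of lymphocyte survival and homing, had 573 ± 52.5 CPM in KO and 358 ± 112 CPM in WT, with an adjusted p of 0.983 in edgeR. The coreceptor gene Cd4 had 29.0 ± 16.3 CPM in KO and 60.7 ± 31.2 in WT, and the Notch target Dtx1 had 35.8 ± 47.1 CPM in KO and 5.08 ± 8.01 in WT. KO 6 held 104.9 CPM of Dtx1, and its log2 fold was 2.81 with KO 6 and 1.31 without it, and 4.97 without WT 3.

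Cofactors and turnover enzymes of Id and E proteins had 6 of 12 tested genes higher and 6 lower, or 8 higher when no scaling factors were used. The coactivator gene Crebbp had 65.1 ± 61.0 CPM in KO and 15.8 ± 15.7 in WT, with 153 CPM in KO 6. Its log2 fold of 2.05 was 1.18 without KO 6, 2.67 without WT 4 and 0.81 without WT 1 and KO 6. The ubiquitin ligase genes Huwe1 and Stub1 had 140 ± 62.2 and 21.0 ± 18.4 CPM in KO, against 198 ± 89.5 and 3.38 ± 6.74 in WT. The log2 fold of Stub1, 2.63, was 1.96 without KO 7 and 10.3 without WT 2, which held nearly all its WT reads. Usp1, a deubiquitinase that stabilises Id proteins, was at 55.1 ± 18.6 CPM in KO and 57.6 ± 24.4 in WT. Usp1 was named after its values were seen.

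TGF beta and BMP signalling genes, inputs to Id gene transcription, had 3 higher and 11 lower fitted values among 14 tested of 18 listed, with a median log2 fold of -0.61. None had an unadjusted p under 0.05 in edgeR. The receptor gene Tgfbr1 had 139 ± 60.1 CPM in KO and 255 ± 90.1 in WT (unadjusted edgeR p 0.0565). Smad3, a signal transducer of TGF beta, had 56.1 ± 31.3 CPM in KO and 102 ± 39.8 in WT. The BMP transducer Smad1 had a higher fitted value in KO, with 42.7 ± 46.0 CPM in KO and 14.7 ± 12.0 in WT. KO 6 held 102 CPM of it, and the log2 fold of 1.54 was 0.66 without KO 6 and 0.49 in limma-voom.

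Innate lymphoid development factors had 5 higher and 9 lower of 14 tested, with a median log2 fold of -0.15. Tcf7, encoding TCF-1, had 138, 149, 102 and 145 CPM in KO 5 to 8, against 201, 253, 211 and 178 CPM in WT 1 to 4. It was the 1 member of that list whose groups did not overlap, where 2.1% of all tested genes were lower in KO without overlap, and its edgeR adjusted p was 0.9999. Runx1 had 120 ± 32.2 CPM in KO and 51.2 ± 51.5 in WT, a log2 fold of 1.22 that was 2.14 without WT 1. Bcl11b, a T cell and ILC2 factor, had 0.308 ± 0.406 CPM in KO and 6.48 ± 10.3 in WT, most of it from WT 2 with 21.6 CPM, and its log2 fold of -4.37 was -2.20 without WT 2 and -5.65 without KO 5.

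The E-box and D-box clock factors, only some of which share DNA elements with Bhlhe40 or Nfil3, had 8 higher and 3 lower fitted values of 11 tested. Their median log2 fold was 0.38. Bhlhe41, the paralogue of Bhlhe40, named after its values were seen, had 0 counts in all libraries. Clock had 64.9 ± 38.1 CPM in KO and 30.3 ± 11.4 in WT, and Npas2 26.4 ± 14.6 in KO and 10.2 ± 9.12 in WT, a log2 fold of 1.37 that was 2.19 without WT 4. Cry2 had 35.6 ± 64.5 CPM in KO and 5.35 ± 5.22 in WT, with 132 CPM in KO 6 alone, and its fitted sign turned without that library.

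Genes studied with Bhlhe40 in T cells and macrophages had 5 of 11 tested, 3 higher and 2 lower. Il10, which Bhlhe40 represses in T cells, was untested with 0.197 ± 0.375 CPM in KO and 3.63 ± 7.26 in WT, all of it from WT 1 at 14.5 CPM, and was named after its values were seen. Gpr65, a proton-sensing receptor gene, had 1012, 1141, 995 and 1326 CPM in KO 5 to 8, against 1502, 1917, 1871 and 2734 CPM in WT 1 to 4. Its groups did not overlap, with KO lower, as for 2.1% of all tested genes. The fold of 0.557 had an unadjusted p of 0.00302 and an adjusted p of 0.515 in edgeR. An unadjusted p under 0.05 was given by edgeR for 4.1% of all tested genes. Il1b had 13.1 ± 17.0 CPM in KO and 0.956 ± 1.68 in WT, highest at 38.1 CPM in KO 7. That library also had the highest sum of the 6 macrophage and neutrophil markers, 725 CPM, with S100a8 at 316 and S100a9 at 359 CPM. The sums were 5.26 to 725 CPM in KO and 0.910 to 43.9 CPM in WT. KO 5 had the next highest sum, 335 CPM, with Il1b at 0 CPM. KO 6 and KO 8 had Il1b at 8.54 and 5.88 CPM, with sums of 11.2 and 5.26 CPM. The part of such cells in the Il1b reads was not tested. The plasma cell and effector factor Prdm1 had 20.6 ± 17.1 CPM in KO and 4.56 ± 8.63 in WT. Without WT 4 the log2 fold was 6.70 for Il1b and 6.36 for Prdm1, against 3.78 and 2.17 with it; it was 2.33 for Il1b without KO 7 and 1.57 for Prdm1 without KO 8.

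**Figure D5:**
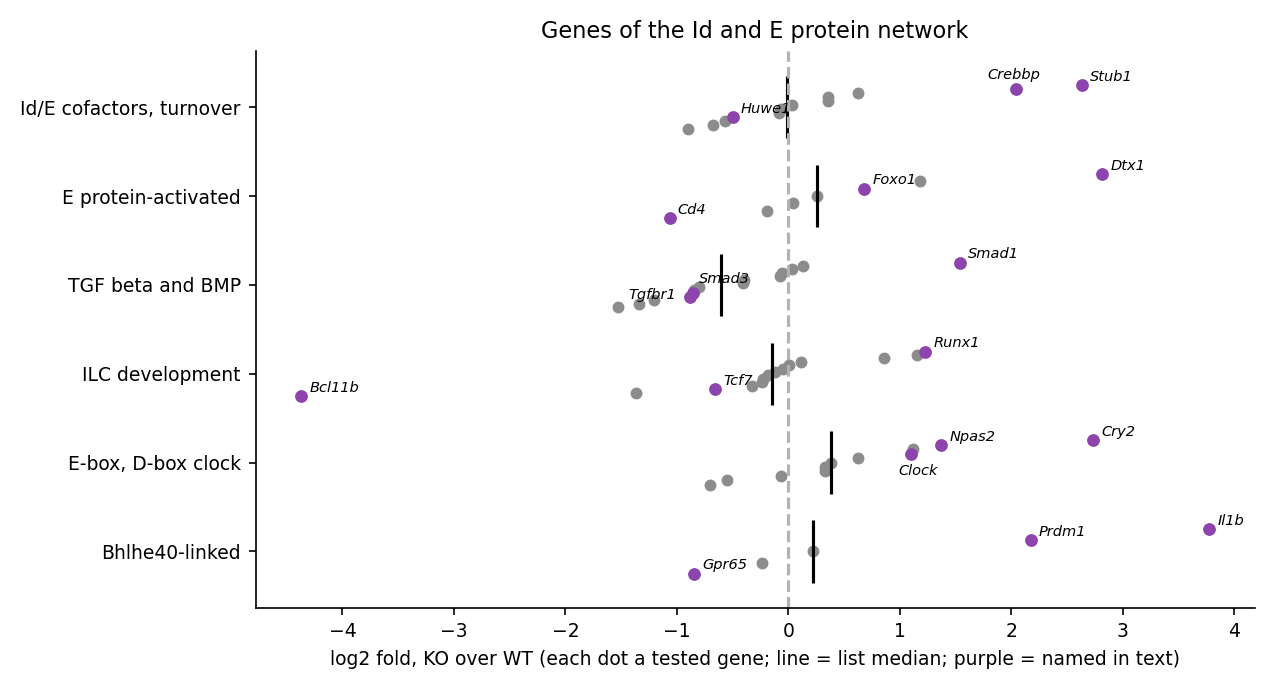
Fitted log2 fold of KO over WT for each tested gene of 6 lists (the list of bHLH partners had none tested); vertical lines are list medians and purple points are the genes named by smallest p. The medians run from -0.61 for TGF beta and BMP signalling to 0.38 for the clock factors, and no gene passed an adjusted p of 0.05 in edgeR.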

How the data were processed

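RNA was converted to cDNA with a low-input full-length kit, per the labels' protocols, and reads were handled with STAR 2.3.0 and CASAVA 1.8.2 on build mm10, per the submitters' processing notes. For the counting tool, strand setting and treatment of multi-mapping reads, nothing was stated in the sources used. The authors deposited whole-number read counts per Entrez gene ID without normalization. Of 27179 rows, 25275 were matched to a RefSeq symbol (GRCm38.p6), and the 1904 without one held 0.303% of counts.

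Groups came from the sample titles. Nothing says whether mice shared a litter or preparation, so p-values measure the spread between these libraries. The test was edgeR 4.0.16 (R 4.3.3), quasi-likelihood F test, TMM factors, filterByExpr by group, Benjamini-Hochberg adjustment over all 8878 tested genes. CPM use TMM-scaled totals. Standard errors and 95% intervals came from the F statistic. Log2 CPM for correlations used a prior count of 2 and the permutation test log2(CPM + 0.1). Lengths came from GENCODE M21. The edgeR step was tested on counts simulated from edgeR's own fitted spread, which checks the code and not how well the model suits these libraries. Alternatives were other scaling factors, DESeq2 1.42.0, limma-voom (limma 3.58.1), other filters, and libraries left out; the length of all exons together was added after seeing the data.

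The members and lists were chosen with earlier results of these data known. Named genes were the 9 members, Zbtb46, the 3 genes of smallest p in each list and the 3 genes most like Id2, Bhlhe40 and Nfil3; a few items are not reported here.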

Additional observations from a re-analysis of the deposited data

Results flagged for a closer look

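Among 70 groups of 4 libraries examined, 8 had a library far from the other 3 (a gap to the nearest above Dixon's 95% critical share of the group's range). For normally distributed values chance gives about 1 in 20, or 3.5. The rule was applied to unlogged CPM, which are skewed near the floor, and all 8 were high values. So 8 against 3.5 cannot be read as an excess over chance. In KO, Id3 was at 15.1 CPM in KO 5 against 2.10 CPM in the next library, and in WT it was at 2.19 CPM in WT 2. Tcf3 stood out at 13.6 CPM in KO 8 and at 7.32 CPM in WT 3. The remaining ones were Cry2 at 132 CPM in KO 6, Stub1 at 13.5 CPM in WT 2, and Il1b at 3.46 CPM and Prdm1 at 17.5 CPM in WT 4.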

How the results depend on the processing

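No paired analysis was possible because replicate numbers run from 1 to 8 and none is shared between the groups. No member passed an adjusted p of 0.05 under any alternative that tested it. Id2 (log2 fold -0.36 to -0.11) and Bhlhe40 (-0.67 to -0.19) kept their sign under all 18 alternatives. Leaving out single libraries, the log2 fold ran from -2.31 to 3.39 for Tcf3, -0.0498 to 0.34 for Tcf4, -0.61 to 0.58 for Tcf12, -0.25 to 0.17 for Nfil3, -0.67 to 3.28 for Cry2, -0.70 to 0.21 for Fcho2, -0.12 to 0.23 for Use1 and -0.32 to 0.10 for Yipf5. Signs also turned in limma-voom for Tcf12 (0.12), Cry2 (-0.35) and Use1 (-0.0145). Without WT 1 and KO 6 they turned for Tcf4 (-0.0119), Cry2 (-0.10) and Use1 (-0.21). Without KO 5 and 7 they turned for Nfil3 (0.10), Fcho2 (0.0210) and Yipf5 (0.0807). Nfil3 was at 0.0624 with no scaling factors and at 0.0423 among genes averaging 100 CPM or more. The cause was not tested. Over all genes, edgeR called 0 higher and 0 lower in KO. DESeq2 called 239 higher and 134 lower, edgeR without a filter 1 and 1, and edgeR on the genes of at least 100 CPM 1 and 3. Leaving out single libraries gave 0 to 0 higher and 0 to 2 lower. The median log2 fold of all genes was 0.02 in edgeR, 0.11 with no scaling factors and in limma-voom, -0.26 in DESeq2 and -0.19 without a filter. The Id to E protein ratio was 21.2 in KO and 28.0 in WT without division by length, and 177 in KO and 239 in WT with all exons as length. Over single libraries left out it was 38.1 to 50.8 in KO and 47.5 to 68.7 in WT. Few counts limit Tcf3, Id1, Id3 and Id4.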
